A study of Mus musculus with 4 samples.

Results

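miR-126 is described here in 4 small RNA libraries of the mouse prostate, through every name of the deposited read lists that carries the stem miR-126a (or miR-126) or miR-126b. The members were chosen by name alone. There are 3 of them among the 816 mouse miRNA names of the 4 lists, namely mmu-miR-126a-3p, mmu-miR-126a-5p and mmu-miR-126b-5p, written below without the mouse prefix. The libraries were made from total RNA of wild-type (WT) C57Bl/6 male mice aged 10 weeks, with 2 libraries of basal cells and 2 of luminal cells. Both cell types were sorted by FACS from dissociated prostate as Sca-1 positive and lineage negative cells, with high CD49f for basal cells. Luminal cells are named as labelled. The labels name no animal for any library. The p-values therefore reflect the spread among these 4 libraries alone, and that spread may be technical.

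miR-126 is known as the miRNA of endothelial cells, the cells that line blood vessels. It is made from an intron of Egfl7, a gene for a protein that endothelial cells secrete, and it is known to sustain VEGF signalling and vessel integrity by repressing Spred1 and Pik3r2, inhibitors of the signal downstream of the VEGF receptor. It is also known from blood stem cells and platelets. As with other miRNAs, the precursor hairpin is cut into a 5p and a 3p arm, of which usually one is kept and the other degraded. The labels do not name the antibodies of the lineage stain. Such stains often hold an endothelial marker, which would remove endothelial cells, while Sca-1 is known to be carried by endothelial cells as well as by prostate epithelial cells.

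The sequences are shown because they place the miR-126b name on the opposite strand of the miR-126a arms, from which its few reads have to be told apart. They are from RefSeq on GRCm38.p6, written 5′ to 3′, with the seed (bases 2 to 8, the part that pairs with targets) in capitals in the mature arms and the mature arm in capitals in the hairpin:
miR-126a-3p: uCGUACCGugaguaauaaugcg
miR-126b-5p: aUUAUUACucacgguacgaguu
Mir126a hairpin: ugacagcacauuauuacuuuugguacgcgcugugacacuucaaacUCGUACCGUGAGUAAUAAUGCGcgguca

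miR-126a-3p lies at chr2:26591402-26591423 on the plus strand, in the Mir126a hairpin of 73 bases at chr2:26591357-26591429. miR-126b-5p lies at chr2:26591399-26591420 on the minus strand, so 19 of its 22 bases are the reverse complement of miR-126a-3p, in 1 unbroken run. The Mir126b hairpin of 58 bases, at chr2:26591363-26591420, is contained in the reverse complement of the Mir126a hairpin. In the GENCODE annotation Egfl7 runs on the plus strand from 26580014 to 26593120, and 9 of its transcripts span Mir126a. The hairpin is intronic in 8 of them, in the intron after exon 7 (chr2:26591064-26591663) in the coding transcripts with 10 exons, and lies within an exon of 1 transcript annotated as a retained intron. None of the other mature miRNAs in the RefSeq table, which holds 1679 names, shares the seed of miR-126a-3p or that of miR-126b-5p. miR-126a-5p is given by name.

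The basal libraries held 1855718 (replicate 1) and 3278294 (replicate 2) miRNA reads, and the luminal libraries 1583830 (replicate 1) and 1501898 (replicate 2). Luminal replicate 1 did not stand clearly with its group. Across the 345 tested miRNAs its log2 levels had a Pearson's correlation of 0.874 with both basal replicate 2 and luminal replicate 2, against 0.930 between the basal libraries. The lowest correlations were those of luminal replicate 2 with basal replicates 1 and 2, at 0.776 and 0.821. For luminal replicate 1 they were 0.856 and 0.874. These correlations are across miRNAs, which share their library and are not independent replicates. Luminal replicate 2 listed 445 miRNAs, where luminal replicate 1 listed 573 and the basal libraries 547 and 548. Results for the miR-126a arms are therefore also given without each library in turn.

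miR-126a-3p, the arm through which the known vascular targets are repressed, was among the most abundant miRNAs of both basal libraries. It had 120231 reads in basal replicate 1, 78829 in basal replicate 2, 9587 in luminal replicate 1 and 956 in luminal replicate 2. By reads it ranked 4 and 5 among the miRNAs of the basal libraries, 13 in luminal replicate 1 and 59 in luminal replicate 2. There was no overlap between the cell types, and luminal replicate 1 lay between the basal libraries and luminal replicate 2.

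Scaled to 1000000 miRNA reads with TMM factors (RPM), the level of miR-126a-3p was 44908 RPM in basal replicate 1 and 23467 RPM in basal replicate 2, against 7331 RPM in luminal replicate 1 and 777 RPM in luminal replicate 2. The basal mean was 34188 ± 15161 RPM and the luminal mean 4054 ± 4635 RPM (± SD, n = 2 for either). The luminal SD exceeded the luminal mean. The fitted difference was 8.43-fold, or 3.08 ± 0.91 (SE) as a log2 fold change, and it did not pass the threshold of 0.05 (quasi-likelihood test of edgeR, Benjamini-Hochberg adjusted over 345 miRNAs, unadjusted p = 0.00336, adjusted p = 0.0651). In this comparison 15 of the 345 tested miRNAs passed (4.35%), and 22 (6.38%) were above 0 with an unadjusted p under 0.05. Of the tested miRNAs, 12 had a larger log2 fold change than miR-126a-3p and 2 with a higher basal level had a smaller p. In 94 of the 345 (27.2%) the lower basal library exceeded the higher luminal one, so the absence of overlap is common in these data.

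miR-126a-5p, the opposite arm, had 27171 reads in basal replicate 1, 37248 in basal replicate 2, 4247 in luminal replicate 1 and 233 in luminal replicate 2. Its level was 10149 and 11089 RPM in the basal libraries and 3248 and 189 RPM in the luminal libraries. The basal libraries were close to each other and again above both luminal libraries, of which replicate 2 was far the lower. The basal mean was 10619 ± 665 RPM and the luminal mean 1719 ± 2163 RPM (± SD, n = 2 for either). The log2 fold change was 2.63 ± 0.91 (SE), a fitted 6.18-fold difference that did not pass (edgeR, unadjusted p = 0.00992, adjusted p = 0.127). For both arms an exact permutation test of the share of miRNA reads gave p = 0.333 (2-sided), the smallest p that 2 libraries against 2 allow.

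**Figure D1:**
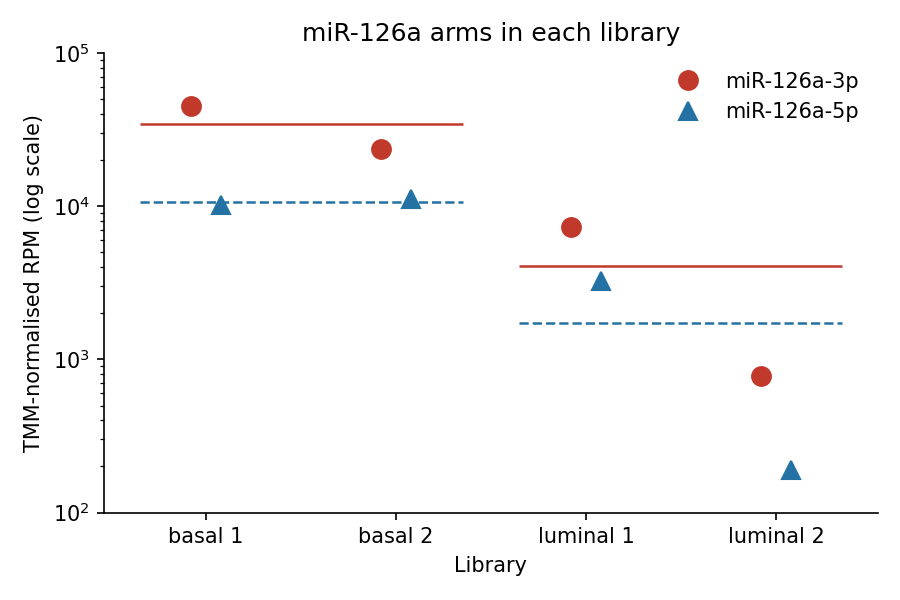
Level of each miR-126a arm in the 4 libraries, in TMM-normalised RPM on a log axis; points are libraries, and horizontal lines are the group means (solid for miR-126a-3p, dashed for miR-126a-5p). Both arms are lowest in luminal replicate 2, at 777 and 189 RPM, and the luminal points lie farther apart than the basal points.

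**Figure D2:**
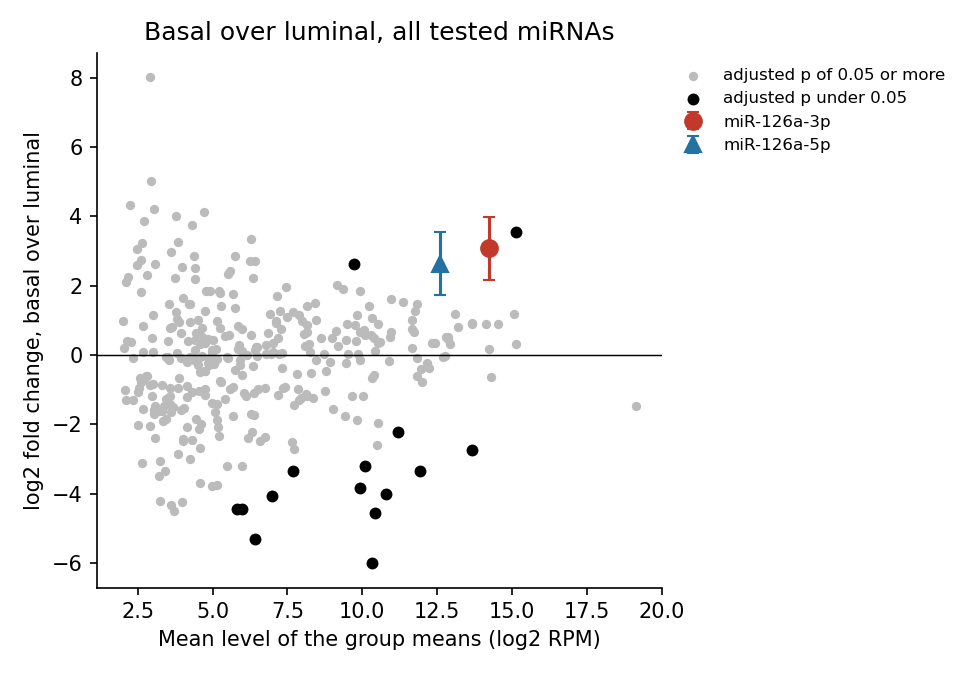
Log2 fold change of basal over luminal against the mean level for the 345 tested miRNAs; grey points did not pass an adjusted p of 0.05, black points passed, and the bars on the miR-126a arms are 1 standard error. Both arms lie among the abundant miRNAs, at 3.08 and 2.63, and neither passed.

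The third member, miR-126b-5p, was at the edge of detection. It had 2 reads in basal replicate 1 and was listed in no other library. A count of 0 allows a share of up to 9.15e-05% of the miRNA reads in basal replicate 2, 1.89e-04% in luminal replicate 1 and 2.00e-04% in luminal replicate 2 (3 reads in each library). These limits cover counting error only. With at most 2 reads in any library it did not enter the test, and no fold change is given. The library with these 2 reads was the one with 120231 reads of miR-126a-3p, to which miR-126b-5p is antisense over 19 bases. The deposited lists do not say whether the search was limited to 1 strand.

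As a share of all miRNA reads, the 3 members together took 7.94% (95% interval 7.90 to 7.98) of basal replicate 1 and 3.54% (3.52 to 3.56) of basal replicate 2. In luminal replicates 1 and 2 they took 0.873% (0.859 to 0.888) and 0.0792% (0.0747 to 0.0838), with Clopper-Pearson intervals that cover counting error only. The intervals of the 4 libraries do not overlap, so the differences within each cell type were far larger than counting error. With miR-200c-3p, the most abundant miRNA of every library, left out of the total, the shares were 10.2% and 6.67% in basal and 2.78% and 0.279% in luminal libraries. The order of the libraries was the same with either total. In bulk libraries such as these, fewer cells of a type and less RNA per cell cannot be told apart.

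The luminal libraries differed from each other more than the groups differed at their closest. For miR-126a-3p the lower basal library was 3.20 times the higher luminal library in RPM, while luminal replicate 1 was 9.44 times luminal replicate 2. For miR-126a-5p these ratios were 3.12 and 17.2. Within the basal group the higher library was 1.91 times the lower for miR-126a-3p and 1.09 times for miR-126a-5p. The difference between the luminal libraries, 3.24 and 4.09 on the log2 scale for miR-126a-3p and miR-126a-5p, was larger than that of 89.6% and 94.5% of the 345 tested miRNAs, whose median size was 1.02. The difference between the basal libraries was larger than that of 57.7% of the tested miRNAs for miR-126a-3p and 8.12% for miR-126a-5p, and the median size there was 0.71.

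**Figure D3:**
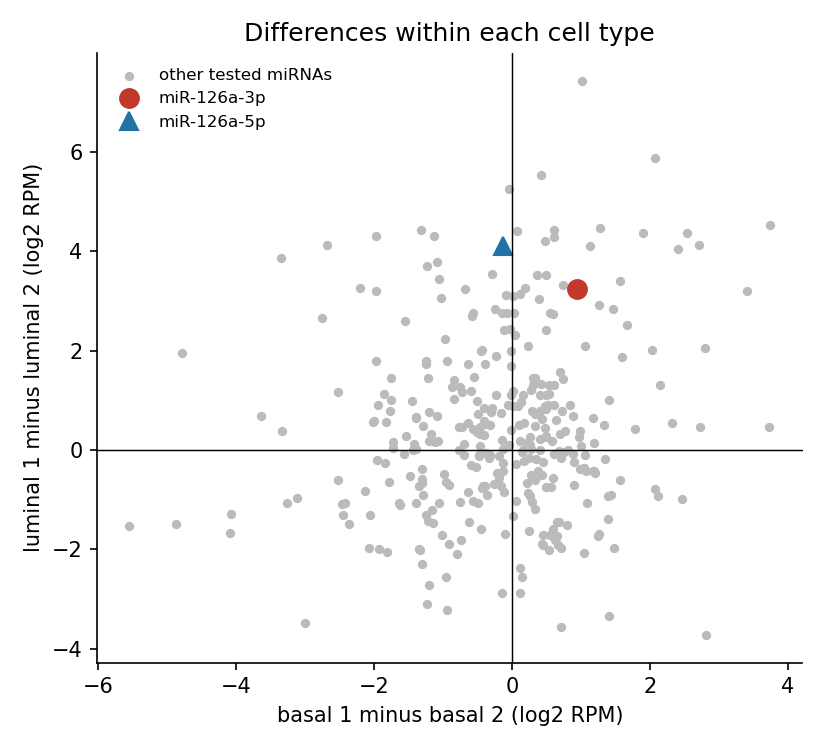
Difference between the 2 libraries of each cell type for the 345 tested miRNAs, in log2 RPM, with basal replicate 1 minus 2 on the horizontal axis and luminal replicate 1 minus 2 on the vertical axis. On the basal axis miR-126a-5p lies near the vertical line, at -0.13, and miR-126a-3p to the right of it, at 0.94. On the luminal axis miR-126a-3p and miR-126a-5p lie high above the horizontal line, at 3.24 and 4.09.

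The calls of both arms turned on single libraries. Without luminal replicate 1, the log2 fold change was 5.53 for miR-126a-3p (edgeR, adjusted p = 0.00107) and 5.87 for miR-126a-5p (adjusted p = 2.65e-04), and both passed, in a run in which 33 of 406 tested miRNAs (8.13%) passed as higher in basal libraries. Without luminal replicate 2, the values were 2.28 (adjusted p = 0.258) and 1.76 (adjusted p = 0.383), and neither passed. Without basal replicate 1, miR-126a-5p passed (2.70, adjusted p = 0.0435) and miR-126a-3p did not (2.54, adjusted p = 0.0522). Without basal replicate 2 it was the reverse, with miR-126a-3p passing (3.49, adjusted p = 0.0229) and miR-126a-5p not (2.59, adjusted p = 0.182). In each such run the lone library of a group was assumed to vary like the other group. Over the 13 alternative settings of miR-126a-3p the log2 fold change was above 0 in all 13 and the adjusted p was under 0.05 in 7, with values from 1.27e-04 to 0.258. For miR-126a-5p it was above 0 in all 14 settings and the adjusted p was under 0.05 in 4, with values from 2.42e-04 to 0.383.

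**Figure D4:**
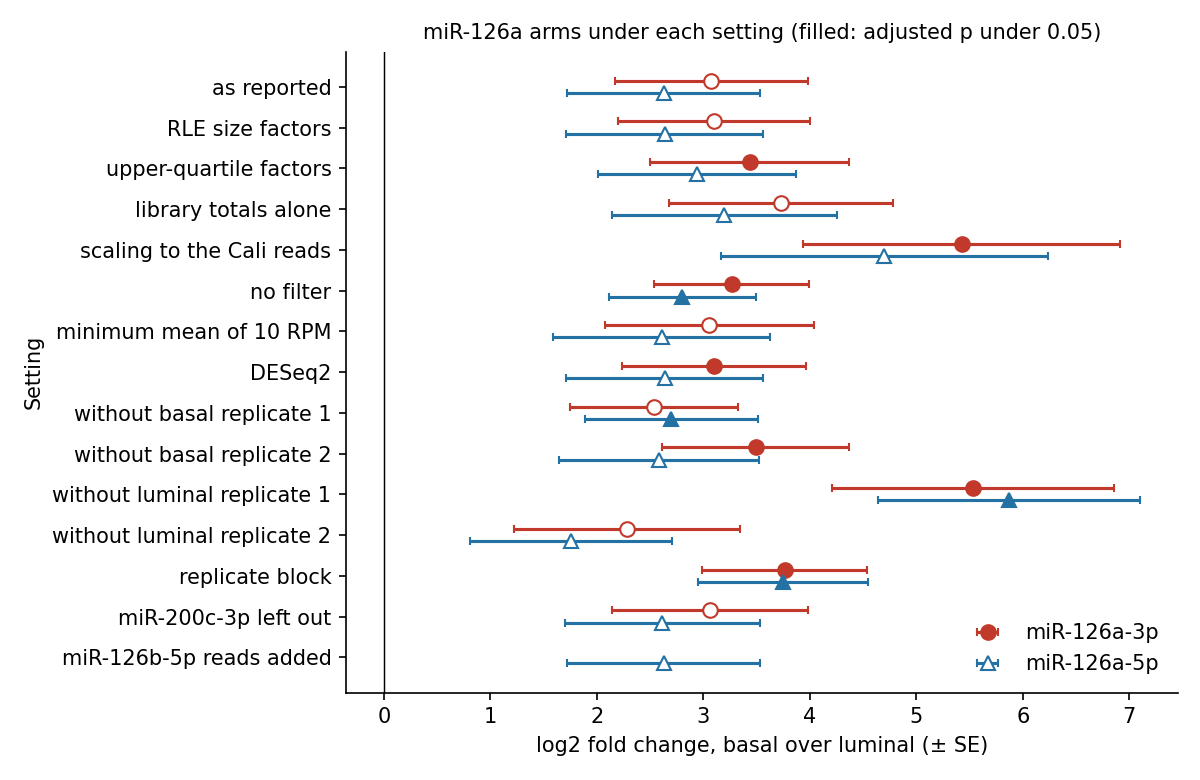
Log2 fold change of basal over luminal for both miR-126a arms under each setting, with bars of 1 standard error; filled symbols have an adjusted p under 0.05 and open symbols do not. Every value is above 0, and the estimates without luminal replicate 1, at 5.53 and 5.87, lie farthest from 0.

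Both arms of miR-126a were abundant in the basal libraries, where miR-126a-5p ranked 12 and 15 by reads. In luminal replicate 2 miR-126a-3p ranked 59 and miR-126a-5p ranked 110. miR-126a-3p was the more abundant arm in every library. It took 81.6% (95% interval 81.4 to 81.8) of the miR-126a reads in basal replicate 1, 67.9% (67.6 to 68.2) in basal replicate 2, 69.3% (68.5 to 70.1) in luminal replicate 1 and 80.4% (78.0 to 82.6) in luminal replicate 2. The ratio of 3p to 5p reads was thus 4.43 and 2.12 in the basal libraries and 2.26 and 4.10 in the luminal libraries. One library of each cell type was high and one low, and the groups overlapped. The mean log2 ratio was 1.61 ± 0.75 for basal and 1.61 ± 0.61 for luminal libraries (± SD, n = 2 for either), a difference of 0.0080 (exact permutation test, 2-sided, p = 1; the smallest p this design allows is 0.333). With an SD of that size, a difference between cell types in arm use was not detectable here.

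Arms were paired only where their names shared a stem. miR-24-3p, with a mean of 34261 RPM alone, was left out because its opposite arms are named with other stems. With at least 10 reads of both arms in all 4 libraries there were 41 such pairs. Among them miR-126a had the highest summed level as a mean over the 4 libraries, at 25289 RPM. That did not hold in the luminal libraries, where miR-200b-3p alone, at 17953 and 30296 RPM, exceeded the summed miR-126a arms. The lesser arm of miR-126a took 25.2% of the pair's reads on average over the libraries. The median over the 41 pairs was 8.90%, and in 12 pairs the lesser arm took more. Since pairs with fewer than 10 reads of the lesser arm in any library were left out, that median is not one of miRNAs in general. The log2 arm ratio of miR-126a spanned 1.06 over the 4 libraries, where the median span over these pairs was 1.30 and 27 pairs spanned more.

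**Figure D5:**
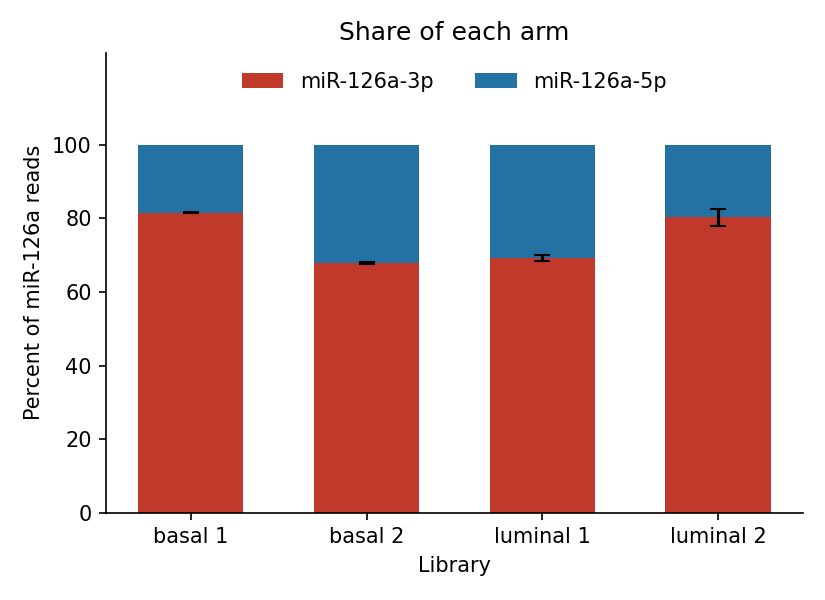
Share of miR-126a reads from each arm in the 4 libraries, in percent, with exact 95% intervals for the 3p share (counting error only). The 3p share is 81.6% and 80.4% in basal replicate 1 and luminal replicate 2, and 67.9% and 69.3% in the other libraries.

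The miRNAs whose pattern over the 4 libraries was most like that of miR-126a-3p were found among 174 tested miRNAs with a mean of at least 50 RPM, by the root mean square difference of their centred log2 levels. The 5 closest were miR-21a-3p (0.22), miR-34c-5p (0.24), miR-126a-5p (0.48), miR-24-1-5p (0.50) and miR-17-5p (0.68), where the median over the 174 was 2.21. The partner arm, miR-126a-5p, was thus the third closest. miR-21a-3p, the lesser arm of miR-21a, had 412 and 366 reads in the basal and 49 and 3 in the luminal libraries. miR-34c-5p, of a family known as p53 targets, had 568 and 238 reads in the basal and 34 and 2 in the luminal libraries. miR-24-1-5p had 510 and 262 against 73 and 2 reads, and miR-17-5p, of the miR-17-92 cluster, 889 and 740 against 163 and 22. All 5 were lowest in luminal replicate 2, where 3 of them had 3 reads or fewer, so their level there is poorly known. None of the 5 passed (edgeR, adjusted p from 0.123 to 0.358, log2 fold changes from 1.95 to 3.35). With 1 library left out, the log2 fold changes of the 5 lay between 1.21, without luminal replicate 2, and 6.48, without luminal replicate 1. Calls in those runs, which leave 1 library in a group, are not given. In other settings with all 4 libraries, 1 of the 5 passed with DESeq2, where 7 of 345 miRNAs passed as higher in basal libraries. With no filter it was 2, where 7 of 816 miRNAs passed in that direction. With the replicate block it was 3, where 7 of 345 did. miR-126a-5p was itself among those passing with no filter and with the replicate block. Since the 5 were picked for their pattern over the same libraries as miR-126a-3p, these counts carry no further weight. With 4 libraries such likeness is a description only.

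Other miRNAs studied in endothelial cells or vessel growth were listed with 32 names, of which 28 were tested. All of them are also expressed in other cell types, and the list was chosen with earlier results of these data known. Of the 28, 1 passed, miR-322-5p, higher in basal cells, where 2 of 345 miRNAs (0.58%) passed in that direction. It is encoded on the X chromosome and belongs to the miR-15/16 seed family. The list's median log2 fold change was 1.22, against -0.01 over all tested miRNAs. Of its 28 members 22 were above 0, against 172 of 345. In 16 of the 28 the lower basal library exceeded the higher luminal one, which was so for 94 of all 345 (27.2%). miR-503-5p, miR-222-5p and miR-132-5p had at most 7 reads in a luminal library and entered the test through their basal reads. Many of the names are also arms of the same miRNA. These counts are therefore a description and no test of the list. Without luminal replicate 1, luminal replicate 2 was the only luminal library. There miR-10a-3p, miR-222-5p, miR-27a-5p and miR-503-5p had 0 reads, and miR-24-1-5p and miR-322-3p had 2 and 5. The members named with 0 reads had log2 fold changes of 9.02 to 9.50 in this run, set by their basal reads. Other members had more reads in luminal replicate 2, such as miR-27a-3p with 588. With all 4 libraries, miR-139-5p did not pass in the test above (edgeR, adjusted p = 0.0895). It passed with DESeq2 (adjusted p = 0.0372) and with the replicate block (edgeR, adjusted p = 0.0397). Since the run without luminal replicate 1 left 1 luminal library, the number of list members passing in it is not given. None passed without any one of the other libraries, where miR-322-5p had an adjusted p of 0.137 (basal replicate 1), 0.0866 (basal replicate 2) and 0.172 (luminal replicate 2), or with library totals alone (0.0653) or scaling to the Cali reads (0.111). With 1 library left out, the list's median ranged between 0.94 and 1.43. The 3 most abundant members were miR-24-3p, miR-23a-3p and miR-10a-5p, with log2 fold changes of 1.17, 0.46 and -0.04 (edgeR, adjusted p = 0.421, 0.789 and 0.983). The summed level of the list was 83137 and 72593 RPM in basal and 48054 and 33048 RPM in luminal libraries. miR-24-3p was the largest part of this sum in every library, and single members differed more between the luminal libraries, such as miR-27a-3p at 2246 and 478 RPM.

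Markers of other cell types that may have passed the sort are given beside miR-126, and their part in its result was not tested. The leukocyte list had 9 names, of which 8 were tested and none passed. Its summed level was 4208 and 8076 RPM in basal and 3811 and 4692 RPM in luminal libraries, with a median log2 fold change of -0.80, which was above 0 under scaling to the Cali reads and 0.51 without luminal replicate 2. miR-223-3p of myeloid cells was at 7.1 and 63.4 RPM in basal and 29.1 and 332 RPM in luminal libraries, so the cell types overlapped. Without luminal replicate 1, with 1 luminal library left, its log2 fold change was -3.21. Of the most abundant members of the list, miR-150-5p of lymphocytes was at 3433 and 6289 RPM in basal and 2830 and 1180 RPM in luminal libraries. miR-342-3p was at 558 and 1411 against 616 and 2483 RPM, and miR-155-5p at 114 and 109 against 194 and 236 RPM. The level of miR-150-5p, like that of miR-126a-3p, was lowest in luminal replicate 2, while those of miR-342-3p and miR-155-5p were highest there. So were those of miR-142-3p, at 28 and 49 against 48 and 208 RPM, and miR-142-5p, at 13 and 60 against 47 and 189 RPM. Of the 8 tested members 5 had a log2 fold change below 0 and 3 above.

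The erythroid list had 4 names, with 1 tested. Its summed level was 171 and 3046 RPM in basal and 208 and 646 RPM in luminal libraries, nearly all of it miR-451a, the miRNA of red blood cells, which did not pass (log2 fold change 1.84, edgeR adjusted p = 0.346) except without luminal replicate 2 (2.93, adjusted p = 0.0367). Its direction turned without basal replicate 2 (-1.32, adjusted p = 0.736). The erythroid sum was thus highest in basal replicate 2, whereas miR-126a-3p was highest in basal replicate 1. The other erythroid names were miR-144-3p with 6, 505, 5 and 1 reads in basal replicates 1 and 2 and luminal replicates 1 and 2, miR-144-5p with 3, 90, 1 and 0, and miR-486-3p with at most 1. miR-144-3p did not enter the test above. It was high in basal replicate 2 only, and its 2.2 RPM in basal replicate 1 lay below the 3.8 RPM of luminal replicate 1. Of the settings with all 4 libraries that tested it, it passed with no filter (log2 fold change 5.10, edgeR adjusted p = 0.00843). It did not with scaling to the Cali reads (0.0860) or a minimum mean of 10 RPM (0.166). Without basal replicate 1, luminal replicate 1 or luminal replicate 2, its log2 fold change was 5.97, 6.48 or 4.32. Each such run left 1 library in a group.

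Smooth muscle markers lay on the luminal side, opposite to miR-126. Of 4 smooth muscle names 2 passed, both higher in luminal libraries, where 13 of 345 miRNAs (3.77%) passed in that direction. They were miR-145a-5p (log2 fold change -3.35, edgeR adjusted p = 0.0232) and miR-143-3p (-2.23, adjusted p = 0.0466), and miR-145a-3p, with a log2 fold change of -3.20, did not pass (adjusted p = 0.123). The call of miR-145a-5p ended without basal replicate 1 (adjusted p = 0.157), and that of miR-143-3p without basal replicate 1 (0.337), basal replicate 2 (0.298) or luminal replicate 1 (0.154). Neither passed with library totals alone, scaling to the Cali reads or a minimum mean of 10 RPM, and miR-143-3p also did not with RLE factors (0.0519), no filter (0.0683) or upper-quartile factors (0.109). The summed level was 1060 and 1983 RPM in basal and 9560 and 12498 RPM in luminal libraries. None of the 5 fibroblast names passed, with a median log2 fold change of -1.02 (0.94 under scaling to the Cali reads) and summed levels of 579 and 631 RPM in basal and 1201 and 1144 RPM in luminal libraries. The most abundant of these were miR-214-3p, miR-199a-5p and miR-199a-3p, with log2 fold changes of -1.02, -1.18 and -0.38 (edgeR, adjusted p = 0.391, 0.382 and 0.850).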

How the data were processed

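Small RNA reads were measured in 2 basal and 2 luminal libraries. The deposited values are raw read counts, 1 list of miRNA names per library, per the file headers. The table's name points to BLAST. Its version, the miRNA database, mismatches, trimming and the handling of ambiguous reads were not given in the sources used here. Any name not listed in a library was taken as 0 reads. The unnamed value closing each list equals the sum above it and was left out, as were Cali_7, Cali_12, Cali_24 and a 5' adaptor, together 29.5% to 62.4% of listed reads. The count test was that of edgeR 4.0.16 under R 4.3.3 (TMM factors, filterByExpr with a minimum of 10 reads and a total of 15, quasi-likelihood test of cell type, 2-sided, Benjamini-Hochberg over 345 miRNAs), after tests on simulated data. The standard error is the log2 fold change divided by the square root of F. Levels for patterns used a prior count of 2. DESeq2 1.42.0 was an alternative. Named were all miR-126 arms, the 5 miRNAs nearest in pattern and, per list, the 3 members of highest mean RPM. Other miRNAs, such as miR-322-5p, miR-223-3p, miR-142-3p, miR-142-5p, miR-200b-3p and miR-486-3p, were named after their values were seen. Members and lists were chosen with earlier results of these data known. Permutation tests used SciPy 1.17.1. Host transcripts are from GENCODE M21 on GRCm38; no source names the authors' build.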

Additional observations from a re-analysis of the deposited data

How the results depend on the processing

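Both miR-126a arms had a log2 fold change above 0 in every alternative run. miR-126a-3p passed the threshold with upper-quartile factors (3.44, edgeR adjusted p = 0.0491), scaling to the Cali reads (5.43, 0.0484), no filter on low counts (3.27, 7.36e-04) and DESeq2 (3.10, 0.00686). It did not pass with RLE factors, library totals alone, a minimum mean of 10 RPM or miR-200c-3p left out. miR-126a-5p passed with no filter (2.80, adjusted p = 0.00354), and adding the reads of miR-126b-5p left it unpassed (adjusted p = 0.127). Runs without 1 library gave 2.28 to 5.53 for miR-126a-3p and 1.76 to 5.87 for miR-126a-5p. With the replicate block, both passed, at 3.76 (adjusted p = 1.27e-04) and 3.75 (2.42e-04), with 23 miRNAs called. The numbers come with no stated shared animal or day, and the replicate differences of the cell types correlated at 0.153 across miRNAs. The count of miRNAs called was 15. It was 2 with library totals alone, 3 with scaling to the Cali reads and 28 with DESeq2, and 9 to 61 without 1 library, where the 9 was without basal replicate 1, the 61 without luminal replicate 1, and 27 without luminal replicate 2. Over all tested miRNAs the median log2 fold change was -0.01 with TMM, 1.94 with the Cali reads, 0.56 with library totals alone and 0.31 with upper-quartile factors. Relative to these medians the arms stayed above 0. The split of higher basal to higher luminal calls was 2 to 13 with TMM, 3 to 10 with upper-quartile factors, 1 to 1 with library totals and 3 to 0 with the Cali reads. The difference between cell types in the log2 arm ratio went from -0.52 to 0.54 without 1 library, and was below 0 without basal replicate 1 (-0.52) or luminal replicate 1 (-0.42). The causes of these changes were not tested.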

Other observations

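The Cali reads, which the sources used here do not explain, allow a ratio that does not depend on the miRNA total. Per 1000 Cali reads miR-126a-3p had 156 reads in basal replicate 1, 20.5 in basal replicate 2, 3.66 in luminal replicate 1 and 0.434 in luminal replicate 2. miR-126a-5p had 35.2 and 9.68 reads on this scale in the basal libraries, and 1.62 and 0.106 in the luminal libraries. The order of the libraries for miR-126a-3p was the same as in RPM. For miR-126a-5p the basal libraries changed places, with the RPM slightly higher in basal replicate 2. The Cali reads were 771214 in basal replicate 1 and 3849843 in basal replicate 2. As a plain share of miRNA reads, miR-126a-5p was at 1.46% in basal replicate 1 and 1.14% in basal replicate 2.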
